A study of Mus musculus with 12 samples.

Results

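Adamts1, Adamts6 and Esm1 are 3 genes for secreted proteins of the matrix around cells, followed here through stimulation of EL-4 T cells, a mouse T lymphoma line. They were chosen by their log2 array values, because Adamts1 was lower, and Adamts6 and Esm1 higher, after phorbol 12-myristate 13-acetate with ionomycin (P/I), a drug pair that mimics signalling from the T cell receptor. They make up 3 of the 19938 genes that the array measures with a probe set of a single symbol, and each has 1 such probe set. The P/I differences of these genes therefore chose them and are given as a description with no test. The effect of cycloheximide (CHX), an inhibitor of protein synthesis, was tested. Averaged over stimulated and unstimulated cells, its weights are uncorrelated with those of the P/I differences. Within stimulated or unstimulated cells alone it shares arrays with the P/I differences, so those p-values for the 3 genes are read as a description.

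Total RNA from 12 cultures was hybridised to Affymetrix Mouse Gene 1.0ST arrays, 3 biological replicates in each of 4 groups. One group was pretreated for 30 min with 10 µg/ml CHX dissolved in DMSO and then stimulated for 4 h with 10 ng/ml PMA and 1 µM ionomycin, and one had the CHX pretreatment with no stimulation. Another group had DMSO pretreatment and the same stimulation, and the last had DMSO pretreatment alone. All cells are of 1 tumour line in culture, so no normal T cell and no tissue was measured. How long the unstimulated CHX cells stayed in the drug is not given in the sources used here, so a P/I difference within CHX cannot be told apart from a longer stay in CHX. The CHX effect in unstimulated cells may likewise rest on a shorter time in CHX than the effect during P/I. Their average and the difference between them carry the same limit. Values are log2 RMA values (array brightness on a log2 scale, normalised by the authors), so a difference of 1 is a 2-fold change. Probe sets differ in how strongly they bind, so levels were mainly compared between groups. Where genes are set beside the median of all probe sets, that is a rough guide only.

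ADAMTS proteases are secreted zinc enzymes that carry thrombospondin repeats and cut proteins of the extracellular matrix. They are made as inactive precursors, which furin and related enzymes trim. ADAMTS1 cuts the proteoglycans aggrecan and versican and is known as an inhibitor of blood vessel growth. ADAMTS6 is less well described, and in mice its loss disturbs heart development. Esm1 encodes endocan, a secreted proteoglycan with a dermatan sulfate chain, best known from endothelial cells. Human endocan binds the lymphocyte integrin LFA-1.

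The promoters of Adamts1 and Esm1 are shown because one gene was lower and the other higher with P/I, and both windows could be searched for sites of factors that P/I is known to activate. They are the RefSeq windows of GRCm38.p6, 250 bases before to 50 after the gene start, for 2 of the 3 genes (Adamts6 is named only). The Adamts1 window is chr16:85803064-85803363 on the minus strand, and the Esm1 window is chr13:113209409-113209708 on the plus strand. Both read 5′ to 3′ in the gene's direction, and capitals mark the motif matches named after them.
Adamts1: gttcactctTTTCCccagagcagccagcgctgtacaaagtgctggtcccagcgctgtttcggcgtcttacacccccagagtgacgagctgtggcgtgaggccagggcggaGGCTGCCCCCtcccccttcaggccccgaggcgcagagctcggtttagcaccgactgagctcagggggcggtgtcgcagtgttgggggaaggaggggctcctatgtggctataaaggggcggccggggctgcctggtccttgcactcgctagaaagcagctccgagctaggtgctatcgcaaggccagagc
Esm1: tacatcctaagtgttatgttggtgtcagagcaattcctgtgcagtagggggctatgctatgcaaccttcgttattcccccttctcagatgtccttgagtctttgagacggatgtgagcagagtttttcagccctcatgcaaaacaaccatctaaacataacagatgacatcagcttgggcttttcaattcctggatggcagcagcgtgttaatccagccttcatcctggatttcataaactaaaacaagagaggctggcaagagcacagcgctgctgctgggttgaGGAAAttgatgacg
The Adamts1 window was GC-rich, at 64.7% with 18 CpG pairs, and the Esm1 window held 46.3% GC with 5 CpG pairs, beside a median of 52.7% over all 32851 promoters in the table. On both strands, the NFAT core GGAAA matched once in each window, at bases 10 to 14 of Adamts1 (minus strand, read as TTTCC) and at bases 287 to 291 of Esm1. This core is in 61.3% of all promoters. An NF-kB pattern, GGG and CC with any 5 bases between them, matched at bases 111 to 120 of Adamts1 on the minus strand and is in 50.8% of promoters. The AP-1 motif TGANTCA (7.81% of promoters), the CRE TGACGTCA (1.79%) and the EGR motif GCGTGGGCG (0.612%) matched in neither window. None of the motif matches overlapped another.

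The cells carried T cell transcripts. Over 10 measured T cell markers (Cd3e, Thy1 and others), the mean value per array was between 9.78 and 10.2, and none of the 10 lay below the median of all probe sets in any group. Because Esm1 is known from endothelium and ADAMTS genes from connective tissue, markers of other cells were read too. Of 12 endothelial markers 8 lay below that median in every group, as did 5 to 6 of 10 fibroblast markers and 5 to 6 of 7 macrophage markers. None of the 12 endothelial markers was called higher with P/I in DMSO by limma at an adjusted p under 0.1, and 2 were called lower, among them Pecam1 (-1.28, adjusted p = 0.00226). At an unadjusted p under 0.05 there were 3 endothelial genes in either direction. With CHX during P/I, 1 of the 12 was called, Esam (0.38, adjusted p = 0.00175). Of the 10 fibroblast markers, Pdgfra was called, higher with P/I in DMSO (0.96, adjusted p = 0.000235) and lower with CHX during P/I (-0.85, adjusted p = 0.000357). Of the 7 macrophage markers, Cd68 was higher with P/I in DMSO (0.67, adjusted p = 0.00623) and lower with CHX during P/I (-1.18, adjusted p = 8.78e-05). CHX during P/I raised Fcgr1 (1.33, adjusted p = 0.00782) and Adgre1 (0.25, adjusted p = 0.0944). By direction, Pdgfra and Cd68 moved with Esm1 in both comparisons, while 9 of the 10 fibroblast markers were not called in either. Pecam1 moved against Esm1 with P/I in DMSO, and Esam, Fcgr1 and Adgre1 moved against it with CHX during P/I. Both comparisons share the DMSO arrays with P/I, so nothing is read from genes called in both. Of the 10 T cell markers, 2 were called higher and 2 lower with P/I in DMSO, and 3 and 3 with CHX during P/I. Over all probe sets 9.05% were called higher and 8.42% lower with P/I in DMSO, and 13.2% and 12% with CHX during P/I. The marker lists are short, so nothing is read from their counts of calls. The part of other cell types in the results was not tested.

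Adamts1 was lowest where CHX and P/I were combined. In CHX with P/I its log2 RMA values were 5.47, 5.81 and 5.45, against 8.47, 8.85 and 9.10 in CHX alone. In DMSO with P/I they were 7.12, 6.99 and 7.30, against 8.42, 8.11 and 8.20 in DMSO alone. No 2 of the 4 groups overlapped, and the order was CHX alone, DMSO alone, DMSO with P/I, and CHX with P/I. In DMSO 12.2% of all probe sets lay higher with P/I without overlap and 12.7% lower, and in CHX 18.3% and 17.4%. The P/I difference was -1.11 (SE 0.16) in DMSO, that is 0.464 of the unstimulated level. In CHX it was -3.23 (SE 0.16), or 0.106 of the unstimulated level, the lowest P/I difference in CHX among the 23410 probe sets tested. The difference between these 2 P/I differences was -2.12 (SE 0.23).

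Adamts6 was highest where CHX and P/I were combined. Its values were 9.48, 9.31 and 9.53 in CHX with P/I, against 6.06, 6.74 and 7.16 in CHX alone. In DMSO with P/I they were 8.03, 8.21 and 8.14, against 5.63, 6.32 and 6.16 in DMSO alone. Both stimulated groups lay above all unstimulated arrays, and only the unstimulated groups overlapped each other. The P/I difference was 2.09 (SE 0.24), or 4.26-fold, in DMSO and 2.78 (SE 0.24), or 6.89-fold, in CHX, placing 123 and 60 from the top of all probe sets. They differed by 0.69 (SE 0.34), with a 95% interval of -0.04 to 1.43.

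Esm1 was highest in DMSO with P/I. Its values were 8.62, 7.85 and 7.84 in CHX with P/I, against 6.55, 7.05 and 7.17 in CHX alone. In DMSO with P/I they were 11.20, 10.73 and 11.14, against 6.48, 7.02 and 7.04 in DMSO alone. The stimulated groups stood apart from each other and from the unstimulated ones, which overlapped. The P/I difference was 4.17 (SE 0.24) in DMSO, 18.1-fold and 12 from the top of all probe sets. In CHX it was 1.18 (SE 0.24), 2.26-fold, and the difference between the 2 was -3.00 (SE 0.34). Without replicate 1 of every group the difference in CHX was 0.73.

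**Figure D1:**
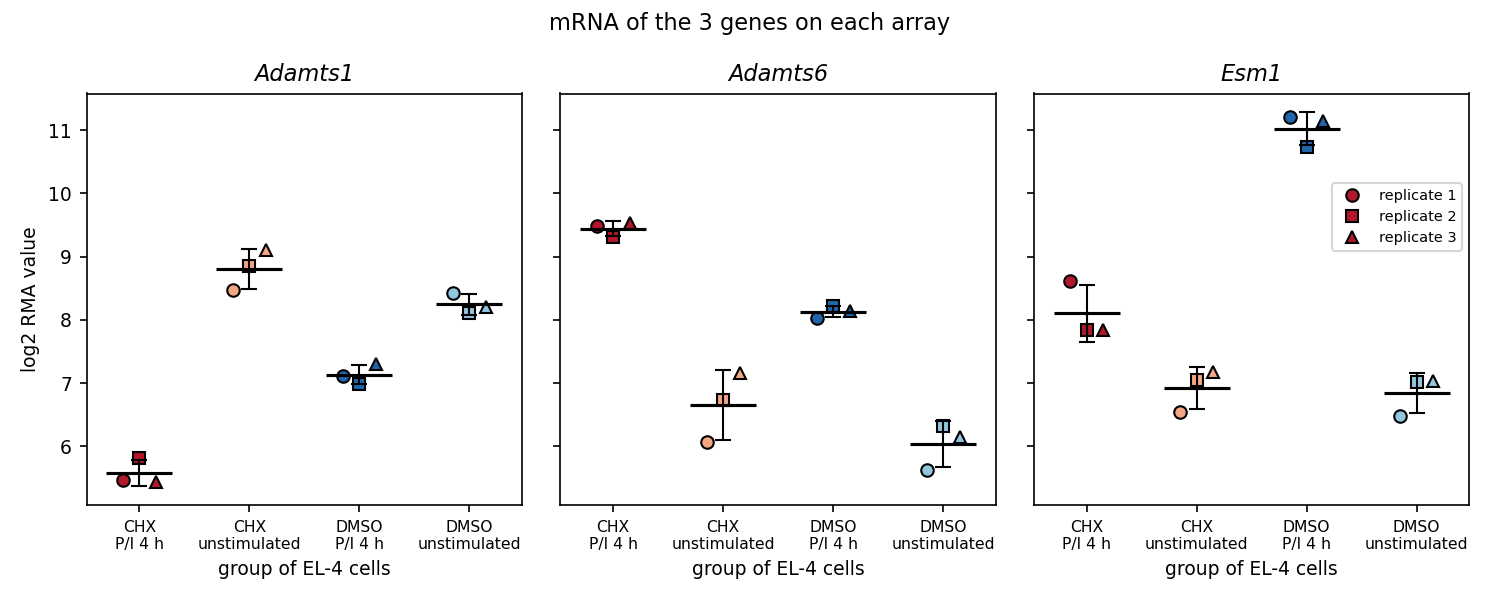
Log2 RMA values of Adamts1, Adamts6 and Esm1 on each of the 12 arrays, by group; points are arrays and bars are group means with SD (n = 3). Adamts1 averaged 5.58 in CHX with P/I and 8.81 in CHX alone, Adamts6 9.44 and 6.66, and Esm1 8.10 and 6.92.

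CHX during P/I changed all 3 genes, 1 upward and 2 downward. This comparison sets CHX with P/I against DMSO with P/I. Its 3 DMSO arrays and its 3 CHX arrays both enter the P/I differences that chose the genes. The choice can therefore move these effects, and their p-values are read as a description. Adamts6 was higher by 1.31 (SE 0.24, 2.48-fold, limma adjusted p = 0.0018). Adamts1 was lower, at -1.56 (SE 0.16, 0.339 of the DMSO level, adjusted p = 3.26e-05). Esm1 was lower, at -2.92 (SE 0.24, 0.132 of the DMSO level, adjusted p = 6.87e-06), which placed it 30 from the bottom of all probe sets. The groups did not overlap for any of the 3. Of all probe sets 25.3% were called in this comparison, 13.2% higher and 12% lower, and 15.3% higher and 14.8% lower had groups that did not overlap. The main split was 3096 higher and 2818 lower, and it was 3751 and 2194 after centring each array on its median.

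In unstimulated cells no CHX effect on the 3 genes passed the test. Here too the 3 DMSO arrays and the 3 CHX arrays both enter the P/I differences that chose the genes. Of all probe sets 0.0299% were called (7 higher, 0 lower). Adamts1 differed by 0.57 (SE 0.16, 95% interval 0.22 to 0.91, limma adjusted p = 0.486). Its 3 CHX arrays all lay above its 3 DMSO arrays, as was so for 7.06% of probe sets. Adamts6 differed by 0.62 (95% interval 0.10 to 1.14, adjusted p = 0.693) and Esm1 by 0.08 (95% interval -0.45 to 0.60, adjusted p = 0.965), and for both genes the groups overlapped. By limma 2 of the 3 genes, Adamts1 and Adamts6, had an unadjusted p under 0.05, and without variance moderation no probe set of the table was called. Leaving out replicate 1 of every group brought Adamts1 (0.82, adjusted p = 0.0299) and Adamts6 (0.71, adjusted p = 0.0446) past the threshold, with 751 probe sets called in all.

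Averaged over stimulated and unstimulated cells, a contrast whose weights are uncorrelated with those of the P/I differences, the CHX effect was 0.96 for Adamts6 (SE 0.17, 1.95-fold, limma adjusted p = 0.00233). It was -1.42 for Esm1 (SE 0.17, adjusted p = 0.000206) and -0.50 for Adamts1 (SE 0.11, adjusted p = 0.011). Of all probe sets 18.4% were called, 10.9% higher and 7.53% lower. The Adamts1 call was lost without replicate 3 of every group (-0.51, adjusted p = 0.105). For Adamts1 this mean joins effects of opposite sign, -1.56 during P/I and 0.57 in unstimulated cells. An exact permutation test of the CHX label within each stimulation state gave unadjusted two-sided p = 0.015 for Adamts6, 0.080 for Esm1 and 0.185 for Adamts1. The smallest it can give is 0.005.

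**Figure D2:**
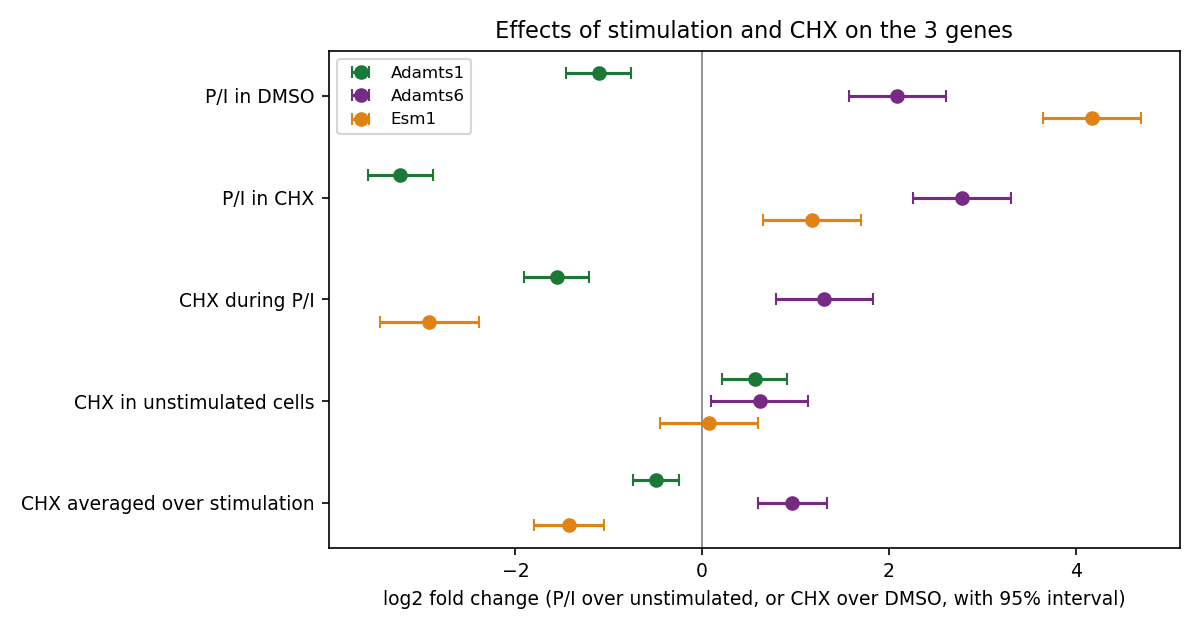
Differences in log2 RMA value with 95% intervals for Adamts1, Adamts6 and Esm1 in each comparison (n = 3 arrays per group). During P/I, the CHX effect lay at 1.31 for Adamts6, -1.56 for Adamts1 and -2.92 for Esm1.

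Among the other ADAMTS proteases, P/I in DMSO raised Adamts9 and Adamts13 and lowered Adamts17. The list held 17 genes, 16 of them measured by a probe set of a single symbol. Of the 16, 2 were called higher and 1 lower, with a median difference of -0.08, beside 9.05% and 8.42% of all probe sets and a median of -0.03. Adamts9, a protease known to cut versican and aggrecan, averaged 8.47 in DMSO with P/I and rose by 1.82 (SE 0.32, 3.54-fold, adjusted p = 0.00205). Of its 6 probe sets, 5 were called higher, with differences over the 6 between 1.39 and 3.09. Adamts13, which cuts von Willebrand factor, rose by 0.28 (adjusted p = 0.0628). Adamts17, a protease linked to fibrillin microfibrils in man, was lower by 0.37 (adjusted p = 0.0495), a call that 1 of its 5 probe sets gave. One of the 16 probe sets of Adamts3, a procollagen processing enzyme, was also called lower.

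Within CHX, P/I raised 3 of the 16, namely Adamts9 (1.51, adjusted p = 0.00576), Adamts13 (0.46, adjusted p = 0.00402) and Adamts18 (0.44, adjusted p = 0.00692), and lowered none. For P/I in CHX, 10.2% of all probe sets were called higher and 11.6% lower. No other ADAMTS gene was called for CHX during P/I by limma, and 0 of the 16 had an unadjusted p under 0.05. Over all probe sets 13.2% were called higher and 12% lower in that comparison. In both stimulated groups 11 of the 16 lay below the median of all probe sets, so a lack of calls may rest on low signal. Adamts9 differed by -0.36 with CHX during P/I (SE 0.32, adjusted p = 0.554). Adamts5, which lies next to Adamts1 on the chromosome and is known as an aggrecan-cutting enzyme, was not called in DMSO with P/I (-0.02, adjusted p = 0.964). It averaged 4.40 in DMSO alone, where the median of all probe sets was 5.89. Of the 7 ADAMTS-like proteins, which have the repeats without the protease, Papln was called lower with P/I in DMSO (-0.58, adjusted p = 0.0467), a call lost without variance moderation (adjusted p = 0.116). None of the 7 was called for CHX during P/I or had an unadjusted p under 0.05 there.

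**Figure D3:**
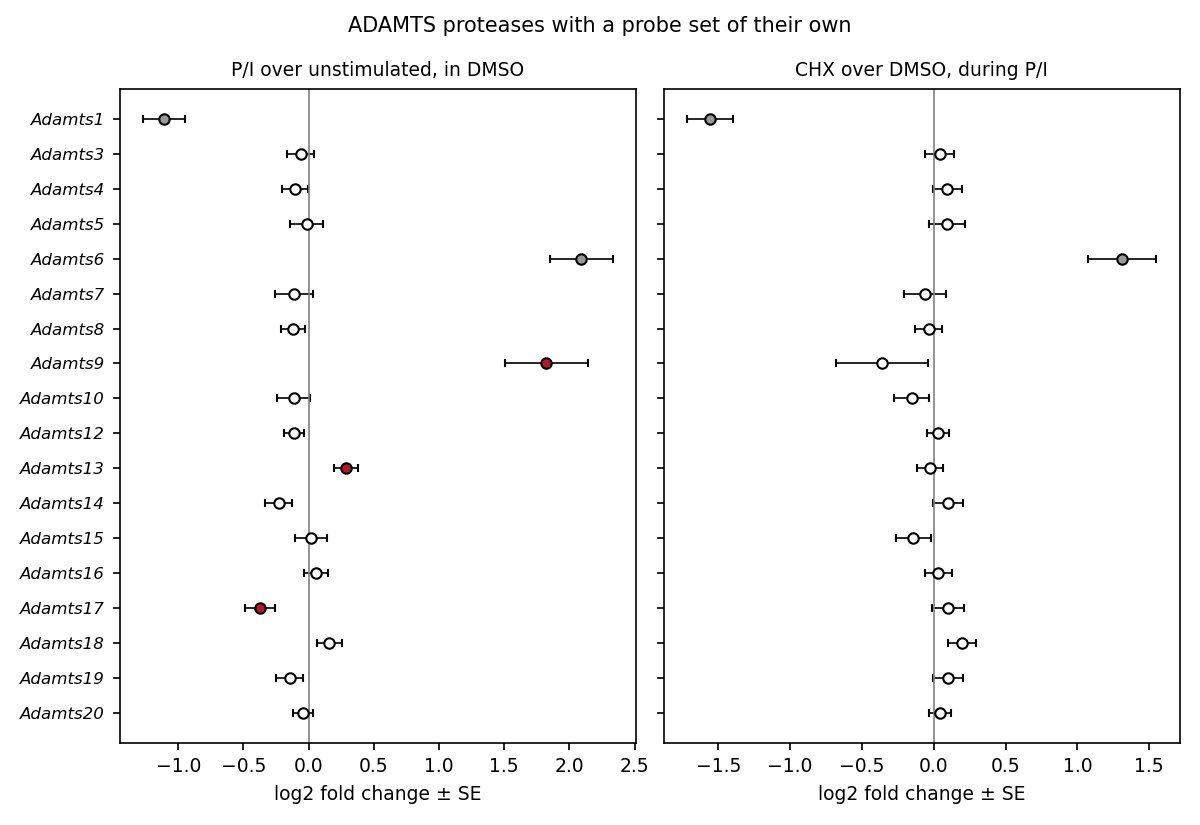
Log2 differences of the ADAMTS proteases for P/I in DMSO and for CHX during P/I, with SE (n = 3 arrays per group); red points passed the test, and grey points are Adamts1 and Adamts6. Adamts9 lies at 1.82 for P/I and Adamts6 at 2.09, while Adamts1 lies at -1.11.

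Some enzymes that mature ADAMTS precursors changed. Furin, the protease that removes the propeptide, averaged 11.3 in DMSO with P/I and 8.33 in DMSO alone, and rose by 3.01 (SE 0.18, 8.08-fold, adjusted p = 7e-07). Under CHX during P/I it was lower, at -1.49 (SE 0.18, adjusted p = 9.63e-05). Pofut2, which adds fucose to the thrombospondin repeats, rose by 0.74 with P/I (adjusted p = 8.54e-05) and differed by -0.07 with CHX (adjusted p = 0.712). Pcsk7, another convertase, differed by -0.23 with P/I (adjusted p = 0.334) and was higher by 1.13 with CHX during P/I (adjusted p = 6.99e-05). In all, 2 of 6 measured maturation genes were called higher with P/I, beside 9.05% of all probe sets. With CHX during P/I 1 was called higher and 1 lower, beside 13.2% and 12% of all probe sets.

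Inhibitors and substrates of the proteases were read beside all probe sets, of which 9.05% were called higher and 8.42% lower with P/I in DMSO. With CHX during P/I these shares were 13.2% and 12%. The lists are short, so nothing is read from their counts. Timp1, one of the tissue inhibitors of metalloproteases, was the only 1 of 6 inhibitors called for CHX during P/I (0.73, adjusted p = 0.00272), and none of the 6 was called by limma for P/I in DMSO, where 1 had an unadjusted p under 0.05. Among 10 substrates, Thbs2, a secreted matrix glycoprotein, was the 1 gene called with P/I in DMSO, and it averaged 11.8 in DMSO with P/I and 10.5 in DMSO alone (1.22, SE 0.17, adjusted p = 0.000446). Sdc4, a membrane proteoglycan, was called higher with CHX during P/I (0.39, adjusted p = 0.0957), a call lost without variance moderation (adjusted p = 0.167). Hbegf, a growth factor that ADAMTS1 is known to release, was 25.5-fold higher with P/I in DMSO (4.67, adjusted p = 1.7e-08) and lower with CHX during P/I (-3.62, adjusted p = 1.15e-07).

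The membrane-bound ADAM proteases, relatives that shed surface proteins, had 3 of 11 genes called higher and 1 lower with P/I in DMSO, beside 9.05% and 8.42% of all probe sets. Adam10 rose by 1.51 (adjusted p = 9.56e-05), Adam8 by 1.19 (adjusted p = 0.00211) and Adam17 by 0.43 (adjusted p = 0.0853), and Adam12 was lower (-1.59, adjusted p = 0.000404). The Adam17 call was lost without variance moderation (adjusted p = 0.161). With CHX during P/I, Adam8 (-1.67, adjusted p = 0.000137) and Adam17 (-0.69, adjusted p = 0.00576) were lower and Adam12 was higher (1.08, adjusted p = 0.00373). Of 18 matrix metalloproteases, 2 were called higher with P/I in DMSO, the collagenase Mmp13 (1.58, adjusted p = 0.000635) and Mmp23 (0.97, adjusted p = 0.000651), a share near that of all probe sets. Both were lower with CHX during P/I (-1.48 and -0.96, adjusted p = 0.000633 and 0.000458), and the gelatinase Mmp9 was higher (0.66, adjusted p = 0.00217).

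Endocan is known to carry a dermatan sulfate chain, so genes for chondroitin and dermatan sulfate synthesis were read. Of these 20 genes 9 were called with P/I in DMSO, 6 higher and 3 lower. Over all probe sets 9.05% were called higher and 8.42% lower. The list's median was 0.01, beside -0.03 over all. The sulfotransferase Chst11 rose by 2.22 (SE 0.24, 4.67-fold, adjusted p = 7.01e-05), the chain polymerase Chsy1 by 1.17 (adjusted p = 7.43e-05) and its relative Chpf2 by 0.91 (adjusted p = 0.00268). Chst12, another sulfotransferase of the pathway, was lower (-1.47, adjusted p = 2.81e-06). The dermatan sulfate epimerase genes Dse (-0.04, limma adjusted p = 0.865) and Dsel (-0.05, adjusted p = 0.794) were not called with P/I in DMSO. Nor was the dermatan sulfotransferase gene Chst14 (-0.11, adjusted p = 0.518). None of these was called with CHX during P/I either. In DMSO alone Dse averaged 5.13, Dsel 4.43 and Chst14 5.25, all below the median of 5.89 over all probe sets. Whether they were expressed was not tested, so the lack of a call does not show a steady level. With CHX during P/I, 2 of the 20 were higher and 6 lower, among them Chpf2 (-1.72, adjusted p = 2e-05), Chsy1 (-1.71, adjusted p = 3.28e-06) and Chst11 (-0.72, adjusted p = 0.0528), beside 13.2% and 12% of all probe sets. The Chst11 call was lost without variance moderation (adjusted p = 0.13). Both comparisons share the DMSO arrays with P/I, so nothing is read from genes called in both.

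**Figure D4:**
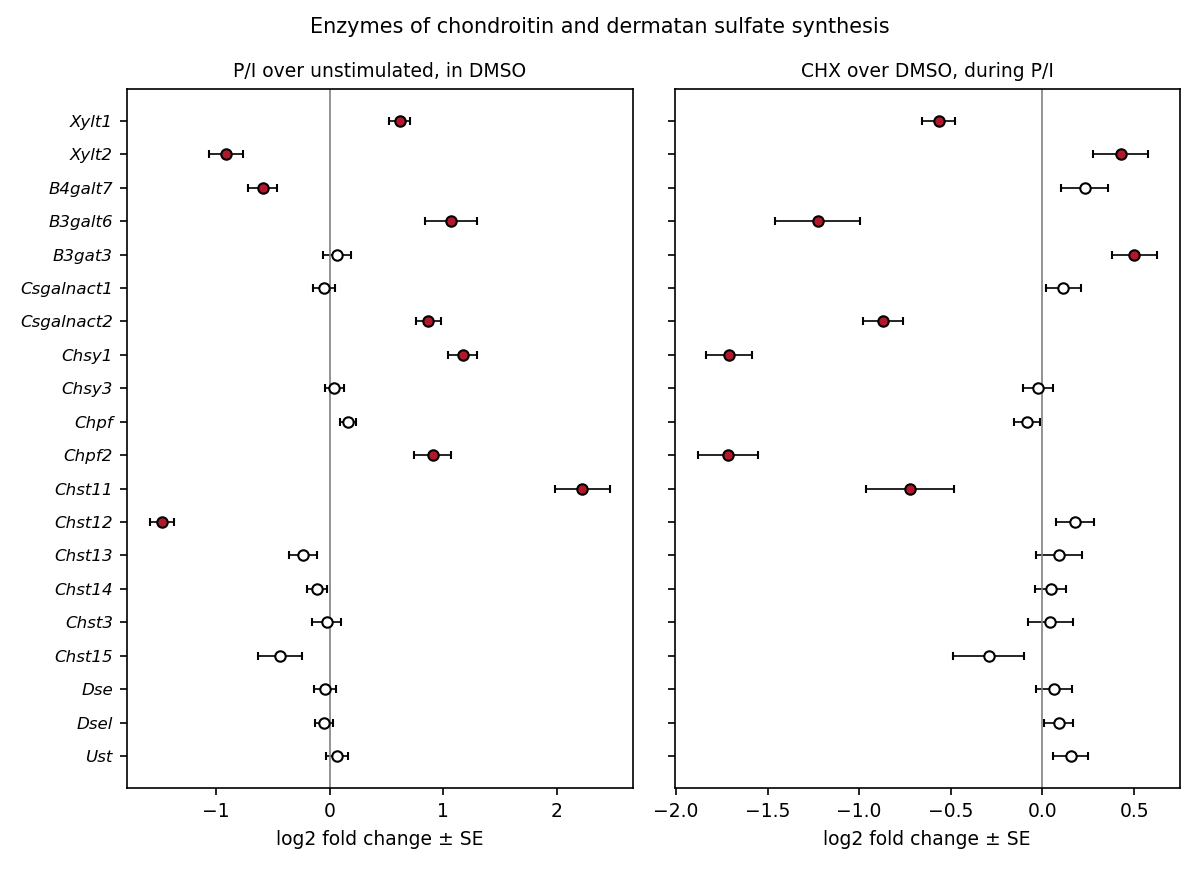
Log2 differences of the chondroitin and dermatan sulfate synthesis genes for P/I in DMSO and for CHX during P/I, with SE (n = 3 arrays per group); red points passed the test. Chst11 lies at 2.22 and Chst12 at -1.47 for P/I, and Chsy1 and Chpf2 lie at -1.71 and -1.72 for CHX.

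A further list held genes of LFA-1, its ligands, the VEGF and HGF axes and Hif1a, and not only partners of endocan. Of its 14 measured genes, 2 were called higher and 2 lower with P/I in DMSO, near the 9.05% and 8.42% of all probe sets. Vegfa, a vessel growth factor known to induce endocan in endothelium, rose by 1.55 (SE 0.21, adjusted p = 0.00041), and its relative Vegfb was lower (-0.78, adjusted p = 0.000346). With CHX during P/I, 3 of the 14 were called higher and 4 lower, beside 13.2% and 12% of all probe sets. Vegfa was lower (-1.98, adjusted p = 4.93e-05), as was Itgal, a chain of LFA-1 (-0.66, adjusted p = 0.00185). Icam1, the main ligand of LFA-1, was higher (1.83, SE 0.31, adjusted p = 0.00103). In unstimulated cells none of the 108 genes of these lists was called for CHX by limma, with or without variance moderation. Of the 108, 6 had an unadjusted p under 0.05. Over all probe sets only 7 (0.0299%) were called there, and 0 without variance moderation, so nothing is read from this lack of calls.

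The genes whose values ran most like each of the 3 were found by Pearson correlation over the 12 arrays among the other 19937 genes. The arrays form 4 groups, so these are descriptions of a shared group pattern. For Esm1 the closest were Ccl1 (r = 0.993), a chemokine, and the cytokine genes Il2 (0.990) and Csf1 (0.986), then Rbpj (0.985) and Ptpn22 (0.983). For Adamts6 they were Phf19 (0.992), the nuclear receptor Nr4a1 (0.988), Gm10858 (0.987), Apold1 (0.985) and the kinase Plk3 (0.984). For Adamts1 they were Zyg11b (0.973), Arl11 (0.972), Prr5 (0.972), Tmem64 (0.971) and Pgrmc2 (0.971). Among the 3 themselves, r was -0.90 for Adamts1 with Adamts6, -0.41 for Adamts1 with Esm1 and 0.52 for Adamts6 with Esm1.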

How the data were processed

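Per the labels and the study's methods, the authors quantile normalised the arrays and applied RMA with an adjustment for probe sequence in Partek, and deposited log2 values for 35399 probe sets. Symbols came from the platform annotation: 21789 probe sets had 1 symbol, 1621 several and 11989 none. The 23410 with a symbol were tested with limma 3.58.1 in R 4.3.3 (lmFit with 4 group means over all 12 arrays, eBayes, two-sided, Benjamini-Hochberg adjustment over the 23410, calls at an adjusted p under 0.1, the study's level). Genes with several probe sets are represented by their brightest on average. Arrays give no read depth, so their number, 3 a group, limits precision. The members and the gene lists were chosen with earlier results of these data known. Named were every other ADAMTS gene called, up to 4 genes of each other list with the smallest p, Hbegf, the 5 genes most like each member and the chromosomal neighbours. Dse, Dsel, Chst14 and Hif1a were named outside this rule and are not in the counts of genes named from the lists. Areg, Adamts2 and Lck, without a probe set of 1 symbol, were not analysed here. The test was checked on simulated data. Alternatives were other normalisations, filters, thresholds, variance models, a replicate block and leaving out arrays.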

Additional observations from a re-analysis of the deposited data

Results flagged for a closer look

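For 15 of the 26 genes named from the lists the P/I difference in CHX departed from that in DMSO by limma's interaction term at an adjusted p under 0.1. Of all probe sets 13.7% were called, but the 26 were named for small p-values in comparisons that share arrays with this term, so nothing is read from their share. The CHX minus DMSO difference of the P/I effects was negative for Vegfa (-2.23), Chpf2 (-1.76), Adam8 (-1.72), Chsy1 (-1.68), Mmp13 (-1.49), Furin (-1.30), Mmp23 (-0.96), Adam17 (-0.81) and Itgal (-0.75). It was positive for Icam1 (1.92), Pcsk7 (1.04), Adam12 (0.92), Timp1 (0.85), Mmp9 (0.60) and Vegfb (0.48). Adamts9 was not among them (-0.31, adjusted p = 0.753).

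Adamts1 stood out because its CHX and DMSO arrays separated in opposite directions. Every CHX array lay below every DMSO array during P/I (-1.56), as was so for 14.8% of all probe sets. In unstimulated cells every CHX array lay above every DMSO array (0.57), as was so for 7.06%. How many probe sets show both was not counted. The difference between these effects is built from the P/I differences by which the gene was chosen, and it was not tested. It also cannot be told apart from a different time in CHX, which is not given for the unstimulated cells.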

How the results depend on the processing

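The CHX effects during P/I kept their direction and call in all 24 alternatives for each of the 3 genes. They lay at -1.75 to -1.41 for Adamts1, 1.24 to 1.42 for Adamts6 and -3.18 to -2.73 for Esm1. These effects share arrays with the P/I differences that chose the genes, so the refits describe the calls and lend them no support. The exact permutation test was counted by its unadjusted p at the 0.1 level, a looser rule than an adjusted p. Averaged over stimulation, Adamts6 (0.84 to 1.11) and Esm1 (-1.55 to -1.33) kept direction and call in 25 of 25. Adamts1 did not: by the exact permutation test -0.50 had p = 0.185, and leaving out arrays gave -0.64 to -0.35, with -0.51 (adjusted p = 0.105) without replicate 3 of every group. In unstimulated cells, the CHX effect on Adamts1 was called with array weights (0.66, adjusted p = 0.0409) and without replicate 1 of every group (0.82, adjusted p = 0.0299), its leave-out range being 0.40 to 0.82. Adamts6 ranged over 0.36 to 0.92 and was called without replicate 1 (0.71, adjusted p = 0.0446). Esm1 ranged over -0.11 to 0.26, below 0 without DMSO replicate 1 (-0.11) and without CHX replicate 3 (-0.05). For P/I in CHX, Esm1 ranged over 0.73 to 1.43, the lowest without replicate 1 of every group, and the Adamts1 difference of P/I effects over -2.34 to -1.81.

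With replicate as a block in the fit, the estimates were unchanged and no call on the 3 genes changed. The limma adjusted p for CHX during P/I was 2.28e-05 for Adamts1, 0.000234 for Adamts6 and 5.93e-06 for Esm1. These too are read as a description. Calls over all probe sets were 6060 with the block and 4088 without for P/I in DMSO, and 119 and 7 for CHX in unstimulated cells. Same-numbered arrays deviated together (r above 0.1) in 17 of 18 pairs, and 12 of 12 arrays deviated most like one of their own number. Arrays numbered 2 and 3 in different groups also deviated together, with r from 0.07 to 0.31. The pairing by number is therefore a hint from the data only.

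Among the list counts, median centring or quantile normalisation called 1 other ADAMTS gene higher with CHX during P/I, against 0. Quantile normalisation called 4 chondroitin genes higher, against 2, and 3 ADAM genes, against 1. With the block 3 ADAMTS-like genes were called lower with P/I, against 1. For CHX averaged, calls split into 3211 higher and 1141 lower after median centring, against 2541 and 1763, and for P/I in CHX into 3304 and 2602 after quantile normalisation, against 2389 and 2719. For CHX in unstimulated cells, array weights called 632 probe sets, and leaving out arrays gave 0 to 751, the highest without replicate 1 of every group. Without replicate 3 of every group 2817 were called for CHX during P/I and 1650 for P/I in DMSO. Of 55 calls on the genes named from the lists in P/I in DMSO, P/I in CHX and CHX during P/I, 7 were lost without variance moderation. The causes were not tested.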

Other observations

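The chromosomal neighbours of the 3 genes, the 2 nearest protein-coding genes on each side with a probe set of 1 symbol, were also read. Beside Esm1, the 4 neighbours Gzmk, Cdc20b, Cspg4b and Snx18 differed by -0.15 to 0.32 with P/I in DMSO, and none was called by limma in that comparison or for CHX during P/I, the lowest adjusted p being 0.121 and 0.122, both for Cdc20b. Beside Adamts6, Ppwd1 (0.77, adjusted p = 0.0365) and Cwc27 (0.57, adjusted p = 0.00649), both linked to the spliceosome, rose with P/I in DMSO. With CHX during P/I, Ppwd1 was higher (0.98, adjusted p = 0.00664) and Srek1ip1 lower (-0.71, adjusted p = 0.0191). Beside Adamts1, the methyltransferase gene N6amt1 rose with P/I in DMSO (0.48, adjusted p = 0.00317) and was higher with CHX during P/I (0.34, adjusted p = 0.0154), while Cyyr1, App and Adamts5 were called in neither.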
